A study of Mus musculus with 4 samples.

Results

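Angiopoietins and angiopoietin-like proteins form a family of secreted proteins, and 7 of its genes were examined among the 54532 genes counted by bulk RNA sequencing of sorted mouse periosteal cells. They were Angpt1, Angpt2, Angptl1, Angptl2, Angptl4, Angptl6 and Angptl7, taken by gene symbol from the count table. Angptl7 had been picked for its lower level in the Sfrp4-/- libraries, so its values in that contrast are given as a description without a test. Of the rest of the family, Angpt4 and Angptl8 are described beside them.

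Cells came from Sfrp4-/- mice (CtskCre;mTmG;Sfrp4-/-) and from wild-type mice (CtskCre;mTmG;wt), all aged 4 weeks and untreated. Sfrp4 encodes a secreted protein that binds Wnt ligands. In both groups a Cre recombinase driven by Ctsk switched the mTmG reporter to GFP, so that cells which express Ctsk, or descend from cells that did, were labelled. The periosteum, the sheet of tissue on the outer face of bone, was taken from long bones and digested, and cells with GFP and CD200 but without CD105, 6C3, Thy1.2, Ter119, CD31 or CD45 were sorted. The study compared these cells, which it calls periosteal stem cells, to ask what the loss of Sfrp4 changes in them. There were 2 libraries of each genotype, and each pooled the cells of 3 mice, so that p-values measure the spread between pools and not between animals.

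Angiopoietins are ligands of the receptor tyrosine kinase Tie2, encoded by Tek, which sits mainly on endothelial cells. ANGPT1 activates Tie2 and is made by cells around vessels, while ANGPT2, best known from endothelial cells, can oppose or mimic it depending on context. Angiopoietin-like proteins mostly share the coiled-coil and fibrinogen-like build of angiopoietins but do not bind Tie2. Some act on lipases of the blood, and others bind integrins or immune receptors.

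The libraries held 17341775 to 18750003 counts in the Sfrp4-/- group and 17119332 and 17669306 counts in the wild-type group, so that a single count was worth 0.0486 to 0.0667 CPM. CPM are counts scaled to a common library size with TMM factors, which correct for a few very abundant genes taking unequal shares of a library. Sfrp4 itself was at 11.4 and 12.1 CPM in Sfrp4-/- libraries, against 90.8 and 107 CPM in wild-type libraries. The 6 markers of the sorted lineage, Ctsk and Cd200 among them, had counts in all 4 libraries. Endothelial markers were low and uneven. Their 12 genes summed to 7.45 and 6.52 CPM in the Sfrp4-/- libraries, against 33.5 CPM in wild-type replicate 1 and 1.98 CPM in wild-type replicate 2. In the last of these libraries 9 of the 12 had no count.

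In 2 members, Angptl7 and Angptl6, both Sfrp4-/- values were under both wild-type values, and their promoters are shown for that reason. Angptl7 had been chosen for it, and 12.6% of all 13737 tested genes had their values in this order, so that 1 of the 6 other members is near the share of all genes. The sequences are those of RefSeq on GRCm38.p6, from 250 bases before to 50 bases after the gene's start, read 5′ to 3′ on the minus strand, on which both genes lie. The window of Angptl7 is chr4:148500413-148500712 and that of Angptl6 is chr9:20879661-20879960. Capitals mark the longest run of letters that both promoters hold on the same strand, 9 bases.
Angptl7: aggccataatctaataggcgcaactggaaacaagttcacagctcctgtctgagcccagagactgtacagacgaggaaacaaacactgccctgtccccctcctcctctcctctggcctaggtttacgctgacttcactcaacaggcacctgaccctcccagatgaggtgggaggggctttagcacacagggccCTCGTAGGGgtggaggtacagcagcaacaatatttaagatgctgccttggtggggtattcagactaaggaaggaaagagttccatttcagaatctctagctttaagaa
Angptl6: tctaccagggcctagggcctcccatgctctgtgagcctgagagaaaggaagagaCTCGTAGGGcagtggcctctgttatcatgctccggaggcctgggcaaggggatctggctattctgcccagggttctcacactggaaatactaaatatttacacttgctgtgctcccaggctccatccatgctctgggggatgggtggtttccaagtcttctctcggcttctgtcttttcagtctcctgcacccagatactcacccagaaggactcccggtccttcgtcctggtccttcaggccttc
The run begins 58 bases before the start of Angptl7 and 196 bases before that of Angptl6, and 34 of 32851 RefSeq promoters (0.103%) hold it on either strand. A second run of the same length is shared on opposite strands and occurs in 0.584% of promoters. Both runs were found by searching these 2 promoters, and other pairs of promoters were not compared. How often a pair shares a run of 9 bases was not tested, so these shares do not mark either run as unusual.

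The promoter table held 4 of the 7 members, Angptl1, Angptl2, Angptl6 and Angptl7, and no entry for Angpt1, Angpt2 or Angptl4. On both strands, 5 motifs were searched. They were CTTTGAN of TCF/LEF factors, which act at the end of the canonical Wnt pathway, TGTGGT of RUNX factors, ACGTG of the hypoxia response, TGANTCA of AP-1 and the TATA box TATAAA. None of these letters occurred in the windows of the 4 members. Among all promoters the shares were 15.96%, 16.76%, 19.62%, 7.808% and 13.62%, in that order. The window of Angpt4 held the TCF/LEF, RUNX and TATA box letters, and that of Angptl8 held the RUNX letters.

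Several of these genes lie inside larger genes. Of the 7 members, 4 lay wholly within the span of a protein-coding gene on the opposite strand, as did Angptl8. Over all 22046 protein-coding genes of the table, 2.48% lay within another on the opposite strand. The hosts were Mtor for Angptl7, Ralgps2 for Angptl1, Ralgps1 for Angptl2, Mcph1 for Angpt2 and Dock6 for Angptl8. None of these genes shared an exon base with its host in GENCODE M21. Whether unspliced RNA of a host added reads to the gene within it was not tested. Because the library kit does not mark strand, reads of exons that overlap on opposite strands cannot be told apart. Such overlap affected 16.8% of the exon bases of Angptl6 (with A230050P20Rik), 16.4% of those of Angptl1 (with Gm37802) and 14.2% of those of Angpt1 (with Gm17473). Gm17473 had no count in any library and Gm37802 had 4 counts in all.

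To compare levels between genes, counts were divided by gene length, which gives RPKM, CPM per kilobase of gene length. Angptl4 and Angpt2 stood highest in both genotypes and together made up most of the family's transcripts per length. Angptl4 took 52.3% of the summed RPKM of the 8 tested family genes in Sfrp4-/- libraries and 43.1% in wild-type libraries. Angpt2 took 22.6% in Sfrp4-/- and 21.5% in wild-type libraries. Among 22046 protein-coding genes, mean RPKM placed Angptl4 at rank 1497 in Sfrp4-/- and 1883 in wild-type libraries. Angpt1 and Angptl1 were the lowest of the 8 in both genotypes, each below a mean of 1 RPKM.

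**Figure D1:**
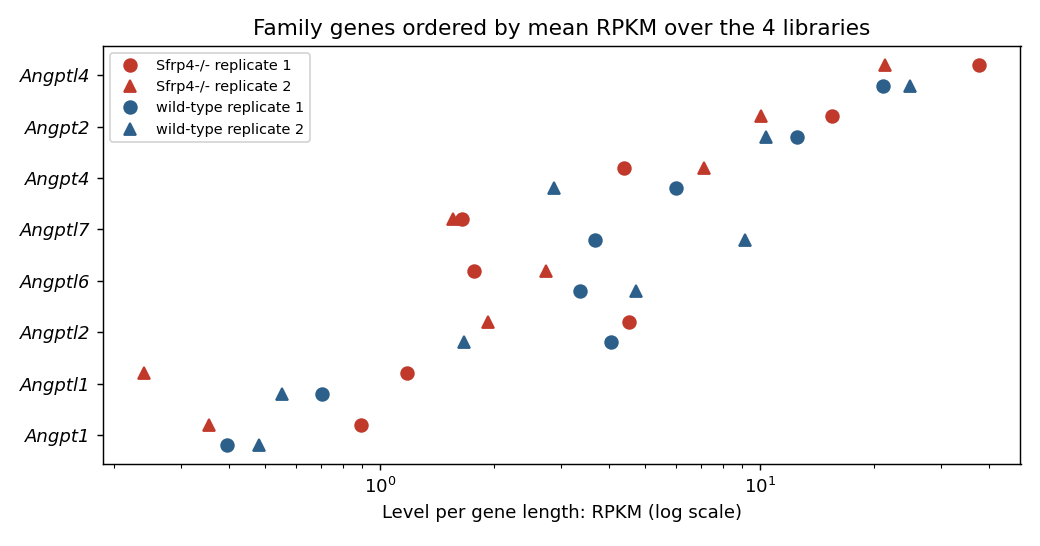
Level per gene length (RPKM, log axis) of the 8 tested family genes in each library, ordered by their mean over the 4 libraries; circles are replicate 1 and triangles replicate 2, red for Sfrp4-/- and blue for wild-type. Angptl4 lies between 21.1 and 37.7 RPKM and Angpt2 between 10.1 and 15.5 RPKM, clear of each other and of the 6 genes under them.

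Over all 4 libraries the order of mean RPKM was Angptl4 (26.3), Angpt2 (12.1), Angpt4 (5.10), Angptl7 (4.01), Angptl6 (3.15), Angptl2 (3.05), Angptl1 (0.669) and Angpt1 (0.532). The ranges of Angptl4 and Angpt2 overlapped neither each other nor that of Angpt4. The neighbours from Angpt4 down to Angptl2 overlapped in range and cannot be ordered among themselves. Angptl2 and Angptl1 did not overlap, while Angptl1 and Angpt1 did. By mean RPKM, Angptl7 was at rank 6 of 8 in Sfrp4-/- and rank 3 of 8 in wild-type libraries. It was chosen for its lower level in Sfrp4-/- libraries, so this difference restates the choice. The wild-type rank was not stable between libraries. In wild-type replicate 1 Angptl7 was at 3.68 RPKM, under Angpt4 at 6.00 RPKM. In wild-type replicate 2 it was at 9.16 RPKM, above Angpt4 at 2.87 RPKM.

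**Figure D2:**
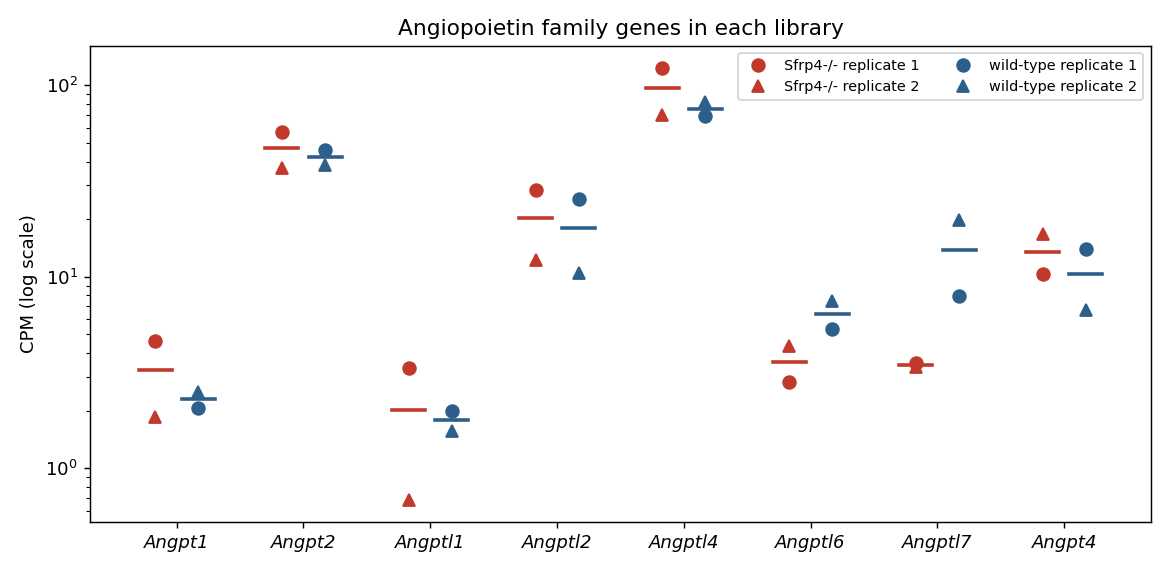
CPM (log axis) of the 7 members and Angpt4 in each library, with a horizontal bar at the mean of each genotype; red is Sfrp4-/- and blue wild-type, circles replicate 1 and triangles replicate 2. Only Angptl6 and Angptl7 have both red points under both blue points.

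Of the angiopoietin ligands, Angpt2 was the abundant one and Angpt1 was scarce. Angpt2 (chromosome 8, 18690263 to 18741562, minus strand, mm10) was at 57.1 and 37.1 CPM in Sfrp4-/- libraries and at 46.1 and 38.4 CPM in wild-type libraries. The genotypes overlapped, with the highest value in Sfrp4-/- replicate 1. The log2 fold change, here and below Sfrp4-/- minus wild-type, was 0.16 ± 0.33 (SE, n = 2 each), with a 95% interval of -0.63 to 0.94. In wild-type replicate 2, where Angpt2 was at 38.4 CPM, 9 of the 12 endothelial markers, Cdh5, Kdr and Tek among them, had no count, while Pecam1 had 21, Vwf 8 and Eng 5 counts. The part of endothelial cells in the level of Angpt2 was not tested. Its host Mcph1, a gene of chromosome condensation and the damage response, was at 5.13 and 5.93 CPM in Sfrp4-/- and 3.53 and 3.15 CPM in wild-type libraries.

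Angpt1 (chromosome 15, 42424723 to 42676977, minus strand) had 86 and 38 counts in Sfrp4-/- libraries and 31 and 43 counts in wild-type libraries. These were 4.64 and 1.85 CPM in Sfrp4-/- and 2.07 and 2.51 CPM in wild-type libraries. Sfrp4-/- replicate 1 was the high library and the other 3 lay close together, with counting intervals (exact Poisson, 95%) of 3.71 to 5.73 CPM in Sfrp4-/- replicate 1 and 1.31 to 2.54 CPM in Sfrp4-/- replicate 2. The log2 fold change was 0.50 ± 0.70, with an interval of -1.16 to 2.16. Mural cells and platelets are known sources of ANGPT1 elsewhere, and their markers are given beside it. The 8 mural genes summed to 74.0 and 67.8 CPM in Sfrp4-/- and 98.4 and 62.8 CPM in wild-type libraries, and the 5 megakaryocyte and platelet genes to 7.34 and 17.4 CPM in Sfrp4-/- and 24.1 and 11.0 CPM in wild-type libraries. Both sums were highest in wild-type replicate 1. Of the single mural genes, 6 of 8 were highest in wild-type replicate 1 and Acta2 in Sfrp4-/- replicate 2. Only Notch3 was highest in Sfrp4-/- replicate 1, the library with most Angpt1. It was at 1.94 and 0.535 CPM in Sfrp4-/- and 0.734 and 0.408 CPM in wild-type libraries. Of the platelet genes, only Gp9 was highest in Sfrp4-/- replicate 1, at 1.46 and 1.02 CPM in Sfrp4-/- and 1.40 and 1.11 CPM in wild-type libraries. Pf4 and Itga2b were highest in wild-type replicate 1 and Ppbp in Sfrp4-/- replicate 2, and Gp1bb had no count. The part of these cells in the level of Angpt1 was not tested. Per length, Angpt2 exceeded Angpt1 in every library, 17.3-fold and 28.3-fold in Sfrp4-/- libraries and 31.5-fold and 21.6-fold in wild-type libraries.

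Angpt4, a further ligand of Tie2, was detected in all libraries. Its levels were 10.3 and 16.7 CPM in Sfrp4-/- and 14.0 and 6.70 CPM in wild-type libraries, which overlapped (log2 fold change 0.38 ± 0.47, interval -0.74 to 1.51). Replicate 2 was the high library in Sfrp4-/- and replicate 1 in wild-type. Without Sfrp4-/- replicate 2 its log2 fold change was at 0.00 to the second decimal, and without wild-type replicate 2 it was -0.06.

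The receptors of these ligands were at or near the limit of detection. Tek had 8 and 3 counts in Sfrp4-/- libraries and 6 and 0 counts in wild-type libraries. Tie1, the orphan relative that modulates Tie2, had 2 and 4 counts in Sfrp4-/- and 54 and 0 counts in wild-type libraries. Ptprb, the phosphatase that restrains Tie2, had 0 and 4 counts in Sfrp4-/- and 22 and 0 counts in wild-type libraries. All 3 failed the filter on low counts, and Tie1 and Ptprb were highest in wild-type replicate 1, where the endothelial list was also highest. Of the 9 receptor and partner genes, 6 were tested and 0 passed in either direction, with a median log2 fold change of 0.21 against 0.0031 over all 13737 tested genes. Of the integrin subunits among them, Itgb1 was abundant, at 376 and 160 CPM in Sfrp4-/- and 436 and 287 CPM in wild-type libraries. Itgav, Itga5 and Itgb3 were lower, between 8.22 and 21.1 CPM in Sfrp4-/- libraries and between 2.74 and 26.1 CPM in wild-type libraries. Dok2, an adaptor of Tie2 that blood cells also express, was at 3.29 and 1.61 CPM in Sfrp4-/- and 0.534 and 2.04 CPM in wild-type libraries.

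**Figure D3:**
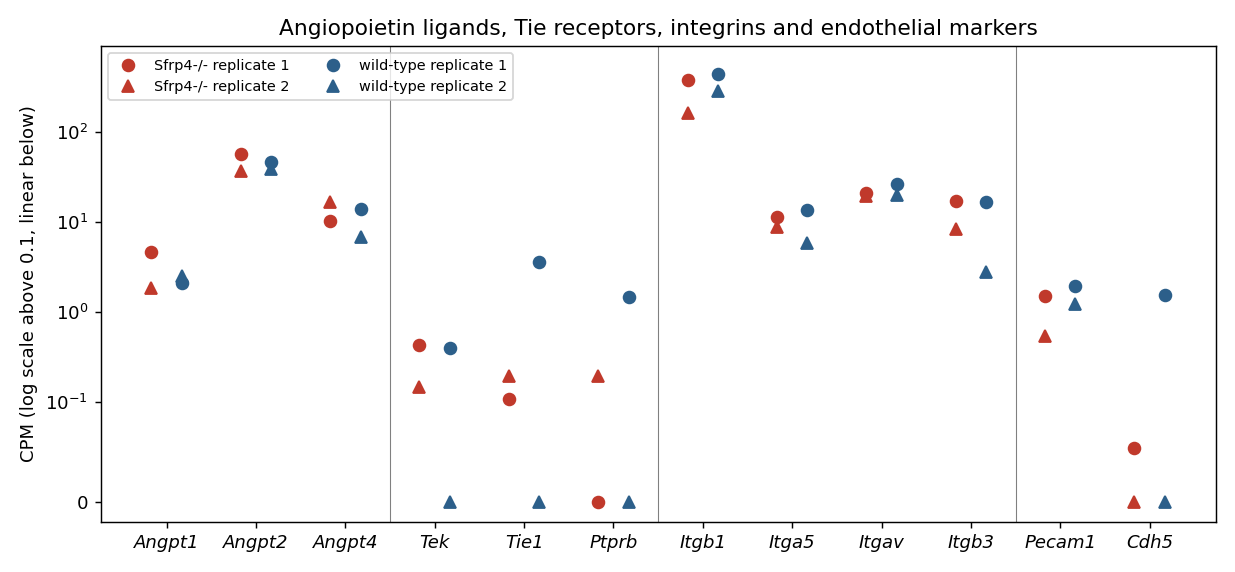
CPM in each library (log scale above 0.1, linear below) of 3 angiopoietins, Tek, Tie1 and Ptprb, 4 integrin subunits and 2 endothelial markers; red is Sfrp4-/- and blue wild-type, circles replicate 1 and triangles replicate 2. Angpt2 exceeds Tek in every library, and the highest points of Tie1, Ptprb and Cdh5 all belong to wild-type replicate 1.

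Angptl4, an inhibitor of lipoprotein lipase that PPAR factors, glucocorticoids and low oxygen induce in other tissues, was the most abundant member. The gene (chromosome 17, 33773750 to 33781575, minus strand) was at 124 and 70.3 CPM in Sfrp4-/- libraries and at 69.4 and 81.6 CPM in wild-type libraries. The single high value was that of Sfrp4-/- replicate 1, and the other Sfrp4-/- library lay between the wild-type libraries. The log2 fold change was 0.36 ± 0.36, with an interval of -0.50 to 1.23, and it was -0.10 when Sfrp4-/- replicate 1 was left out. Adipoq, an adipocyte hormone gene, was also highest in that library. It was at 4.21 and 0.584 CPM in Sfrp4-/- and 0.800 and 0 CPM in wild-type libraries, while the defining adipocyte genes Plin1 and Cidec had no count in any library. Of the 4 genes with counts in the list of adipocyte and Lepr stroma genes, only Adipoq was highest in Sfrp4-/- replicate 1. Cxcl12 was highest in Sfrp4-/- replicate 2, Kitl in wild-type replicate 1 and Lepr in wild-type replicate 2. The whole list of 6 genes summed to 134 and 302 CPM in Sfrp4-/- and 92.6 and 151 CPM in wild-type libraries. Most of that sum was Cxcl12, at 116 and 291 CPM in Sfrp4-/- and 76.2 and 135 CPM in wild-type libraries. Whether fat cells contributed to the level of Angptl4 was not tested.

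Lpl, the lipase that ANGPTL4 inhibits, was at 30.8 and 26.2 CPM in Sfrp4-/- libraries and at 16.6 and 20.5 CPM in wild-type libraries. The Sfrp4-/- values were both above the wild-type values, but Lpl did not pass (log2 fold change 0.62 ± 0.31, interval -0.11 to 1.34, edgeR quasi-likelihood adjusted p = 1.00). Gpihbp1, which anchors the lipase on endothelium and was named after its values were seen, had 13 and 7 counts in Sfrp4-/- and 94 and 0 counts in wild-type libraries, the pattern of the endothelial markers. Of 13 lipase genes in the table, 11 were tested and 0 passed, with 3 above and 8 below 0 and a median of -0.50. Pcsk5, a proprotein convertase, was at 92.7 and 38.5 CPM in Sfrp4-/- and 180 and 74.0 CPM in wild-type libraries, with replicate 1 high in both. Angptl8, which takes part in lipase inhibition and is best known from liver and fat, had 0 counts throughout. With a floor of 3 counts over a group, this allows up to 0.0768 CPM in Sfrp4-/- and 0.0933 CPM in wild-type libraries.

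Genes that respond to the same inducers as Angptl4 in other tissues were examined as lists. The lists also held genes of the receptors and factors themselves, such as Ppard, Nr3c1 and Hif1a. Their medians are therefore not those of responding genes alone. Of 17 PPAR and glucocorticoid genes, 14 were tested and 0 passed, with 7 above and 7 below 0 and a median of 0.00. The receptor gene Ppard was at 0.216 and 1.31 CPM in Sfrp4-/- and 0.734 and 2.80 CPM in wild-type libraries. Of 12 hypoxia genes in the table, 11 were tested and 0 passed, with 5 above and 6 below 0 and a median of -0.05. Ankrd37, a target of hypoxia-inducible factors, stood apart within that list with 124 and 90 counts in Sfrp4-/- and 10 and 4 counts in wild-type libraries. Its log2 fold change was 3.62 ± 0.78 (n = 2 each, edgeR adjusted p = 1.00), and it passed in edgeR without the filter on low counts (adjusted p = 0.0229), while its adjusted p over the other alternatives ranged up to 1.00. Adm, a vasodilator peptide gene that hypoxia also induces, was at 14.3 and 16.0 CPM in Sfrp4-/- and 16.5 and 29.8 CPM in wild-type libraries.

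Angptl2, a ligand of integrin α5β1 and of the inhibitory receptor PIRB that is linked to inflammation, followed the replicate number more than the genotype. The gene (chromosome 2, 33216069 to 33247717, plus strand) had 28.4 CPM (replicate 1) and 12.2 CPM (replicate 2) in Sfrp4-/- libraries, and 25.5 CPM (replicate 1) and 10.5 CPM (replicate 2) in wild-type libraries. Replicate 1 was the high library in both genotypes. The log2 fold change was 0.17 ± 0.56, with an interval of -1.15 to 1.50. It was -0.56 without Sfrp4-/- replicate 1 and 0.96 without wild-type replicate 1, so its direction depended on which library was kept. Its host Ralgps1 had 10 and 17 counts in Sfrp4-/- and 0 counts in both wild-type libraries, at least 7.40-fold higher against the same floor of 3 counts over the group.

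Cell-surface genes listed as partners of angiopoietin-like proteins numbered 9, of which 7 were tested and 0 passed (median -0.19). Pirb, expressed by myeloid cells, was at 9.12 and 6.03 CPM in Sfrp4-/- and 3.33 and 10.6 CPM in wild-type libraries, and it was named after its values were seen. Sdc4, a heparan sulfate proteoglycan of the cell surface, was at 47.7 and 43.1 CPM in Sfrp4-/- and 54.2 and 62.3 CPM in wild-type libraries. Cdh11, the cadherin of mesenchymal cells, was at 238 and 133 CPM in Sfrp4-/- and 286 and 227 CPM in wild-type libraries (log2 fold changes -0.36 ± 0.29 for Sdc4 and -0.46 ± 0.38 for Cdh11).

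Angptl1, known as an inhibitor of vessel growth, was near the lower end of what these libraries measure. The gene (chromosome 1, 156838562 to 156861078, plus strand) had 62 and 14 counts in Sfrp4-/- libraries and 30 and 27 counts in wild-type libraries. The Sfrp4-/- libraries lay on either side of the wild-type ones, at 3.35 and 0.681 CPM in Sfrp4-/- against 2.00 and 1.57 CPM in wild-type. The exact Poisson 95% intervals, which cover counting error only, were 2.57 to 4.29 CPM in Sfrp4-/- replicate 1 and 0.372 to 1.14 CPM in Sfrp4-/- replicate 2. The log2 fold change of 0.17 ± 0.94 had the widest interval of the members, -2.07 to 2.41. Its host Ralgps2 was at 19.9 and 13.3 CPM in Sfrp4-/- and 21.3 and 12.0 CPM in wild-type libraries.

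Angptl6, also called angiopoietin-related growth factor and studied mainly in liver and metabolism, had both Sfrp4-/- values below both wild-type values, as did 12.6% of all tested genes. The gene (chromosome 9, 20873808 to 20879727, minus strand) had 52 and 89 counts in Sfrp4-/- libraries and 80 and 128 counts in wild-type libraries. These were 2.81 and 4.33 CPM in Sfrp4-/- and 5.34 and 7.46 CPM in wild-type libraries, with replicate 2 above replicate 1 in both. The log2 fold change was -0.84 ± 0.50, with an interval of -2.02 to 0.34, and it did not pass (edgeR adjusted p = 1.00). Without each single library it was between -1.18 and -0.56, and the order of the values largely fixed that it stayed below 0. The overlapping gene A230050P20Rik was at 3.83 and 5.50 CPM in Sfrp4-/- and 4.00 and 3.91 CPM in wild-type libraries, so the groups of that gene overlapped.

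Angptl7, a secreted factor best known from the cornea and the outflow tissue of the eye, was the member chosen for being low in Sfrp4-/- libraries. The gene (ENSMUSG00000028989, chromosome 4, 148495183 to 148500460, minus strand) has a single annotated transcript of 5 exons and 2157 bases. It had 66 and 69 counts in Sfrp4-/- libraries and 119 and 339 counts in wild-type libraries. These were 3.56 and 3.36 CPM in Sfrp4-/- libraries, which nearly coincided, and 7.94 and 19.8 CPM in wild-type libraries, which differed widely from each other. The fitted ratio of Sfrp4-/- to wild-type was 0.25 (log2 fold change -2.00), given as a description because the gene was chosen by this contrast. Wild-type replicate 2 set much of that size, since the log2 fold change was -1.20 without it and -2.51 without wild-type replicate 1. In bulk libraries such as these, fewer cells of a type and less RNA per cell cannot be told apart.

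Markers of other cells that the sort could hold were measured beside Angptl7. The 7 tendon and fibrous layer genes summed to 325 and 152 CPM in Sfrp4-/- and 371 and 277 CPM in wild-type libraries. The 6 chondrocyte genes summed to 167 and 67.4 CPM in Sfrp4-/- and 460 and 101 CPM in wild-type libraries. Both sums, like the endothelial one, were highest in wild-type replicate 1, and Fmod and Col2a1 made up much of them. Among the single tendon genes, 3 of 7 (Scx, Tnmd and Cilp) were highest in wild-type replicate 2, the library with most Angptl7. Another 3 (Thbs4, Fmod and Comp) were highest in wild-type replicate 1, and Mkx was highest in Sfrp4-/- replicate 2. Both Sfrp4-/- values of Mkx, 13.6 and 15.6 CPM, were above the wild-type values of 11.1 and 12.5 CPM. Cilp, a matrix protein gene of cartilage and tendon, was at 0 and 0.584 CPM in Sfrp4-/- and 1.53 and 1.98 CPM in wild-type libraries. Of the chondrocyte genes, 5 of 6 were highest in wild-type replicate 1 and 0 in wild-type replicate 2. The other, Sox9, was at 20.7 and 11.3 CPM in Sfrp4-/- and 12.3 and 8.04 CPM in wild-type libraries. Col10a1, the collagen gene of hypertrophic chondrocytes, was at 0.108 and 0.146 CPM in Sfrp4-/- and 71.0 and 3.91 CPM in wild-type libraries (log2 fold change -8.12 ± 1.59, n = 2 each, edgeR adjusted p = 1.00, unadjusted p = 0.00153). In each of these lists 1 gene, Cilp of 7 or Col10a1 of 6, had both Sfrp4-/- values below both wild-type values. That order was found in 12.6% of all tested genes, so these counts are near the share of all genes. All 6 erythroid and all 6 macrophage markers had log2 fold changes above 0, against a median of 0.0031 over all tested genes, and 0 of either list passed. Both Sfrp4-/- values were above both wild-type values in 4 genes of each list, an order found in 15.0% of all tested genes. At an unadjusted p under 0.05 in edgeR there were 3 erythroid genes and 1 macrophage gene, against 291 of all 13737 tested genes. The sums of these lists were 1899 and 2473 CPM (erythroid) and 338 and 356 CPM (macrophage) in Sfrp4-/- libraries. In wild-type libraries they were 688 and 2038 CPM (erythroid) and 273 and 272 CPM (macrophage). The part of these cells in the level of Angptl7 was not tested. Mtor, the kinase gene that holds Angptl7 in its span, was at 11.2 and 16.3 CPM in Sfrp4-/- libraries and 12.5 and 16.7 CPM in wild-type libraries, and these overlapped.

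The genes nearest to Angptl7 in pattern were sought among 8796 protein-coding genes with a mean of at least 5 CPM, by the root mean square difference of centred log2 CPM over the 4 libraries. H2-Q10 was nearest (0.399), a class I histocompatibility gene whose count is uncertain because it has near-identical relatives. Senp8, a protease of the NEDD8 system (0.461), and Sulf1, a sulfatase that trims heparan sulfate outside the cell (0.467), came next. The median over all candidates was 1.05. Sulf1 was at 6.64 and 4.67 CPM in Sfrp4-/- and 10.4 and 14.8 CPM in wild-type libraries. For the other tested genes the nearest patterns were Tuba4a for Angptl4 (0.0516), Eml2 for Angptl2 (0.0624), Aqp1 for Angptl1 (0.123), Taf1b for Angptl6 (0.102), Lrrc15 for Angpt1 (0.0408), Wdr6 for Angpt2 (0.0278) and Cluh for Angpt4 (0.0352). With 4 libraries a near pattern does not mark genes as related, and how many genes lie this near was not counted. The pattern of Angptl7 includes the difference for which it was chosen.

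Across the family, 0 of the 6 members not chosen by their level passed at an adjusted p under 0.05. Of the 13737 genes tested, 0.00% passed. Sfrp4 itself, with a log2 fold change of -3.08 ± 0.31, had the lowest adjusted p (0.377, edgeR) and did not pass either. A gene that did not pass was therefore not shown to be unchanged. At an unadjusted p under 0.05 there were 291 genes in edgeR, and among the 6 members not chosen by their level there were 0. In DESeq2 7 genes passed and in limma-voom 0, none of them among these 6 members. In 2 of the 7 members (Angptl7, which was chosen for it, and Angptl6) the Sfrp4-/- values were both below the wild-type values, against 12.6% of all tested genes. In 0 of the 7 they were both above, against 15.0% of all tested genes. Among the 6 members other than Angptl7 the median log2 fold change was 0.17, against 0.0031 for all genes. The median absolute value was 0.27 for these 6 and 0.29 for all genes. All 7 passed the filter on low counts. Within Sfrp4-/- libraries replicate 1 was above replicate 2 in 6 of the 7 members, and within wild-type libraries in 3 of the 7.

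**Figure D4:**
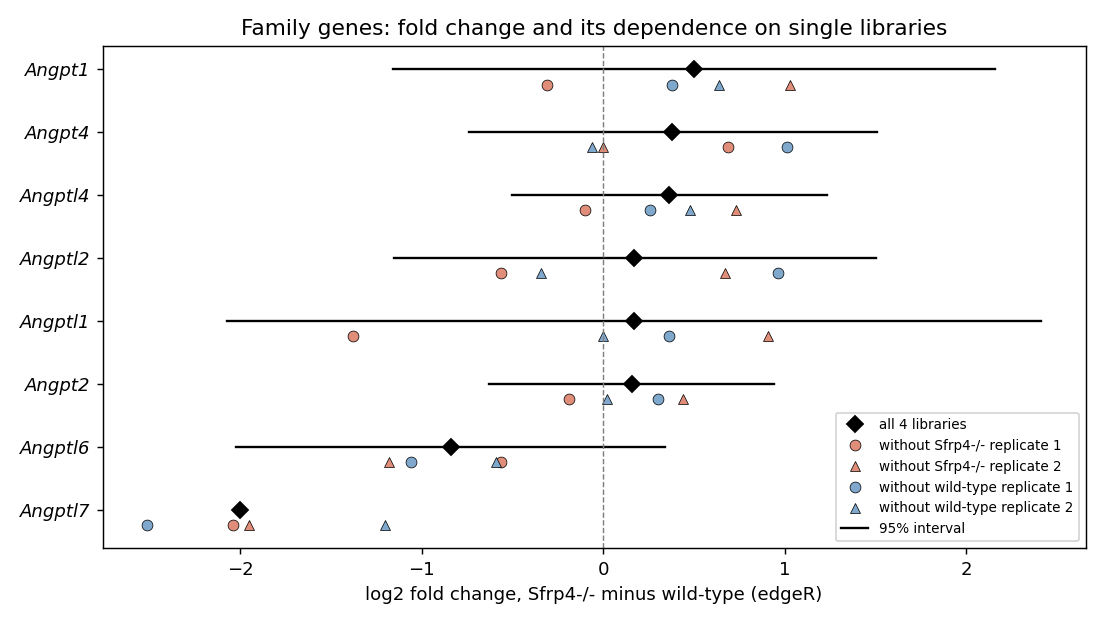
Log2 fold change (Sfrp4-/- minus wild-type, edgeR) of the 7 members and Angpt4 with all 4 libraries (black diamonds), its 95% interval (black lines; not drawn for Angptl7, which was chosen by this contrast), and the value with each library left out (coloured points). All drawn intervals cross 0, and only the points of Angptl6 and Angptl7 all lie on the same side of it. For these genes both Sfrp4-/- values are under both wild-type values, which largely fixes the side.

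The genes of the parallel VEGF system were measured as a comparison within vessel growth factors. Of 10 genes in the table, 8 were tested and 0 passed, with 1 above and 7 below 0 and a median of -0.61. Of the 9 genes with counts, 8 were highest in wild-type replicate 1. Among them the receptor gene Kdr had 13 and 4 counts in Sfrp4-/- and 51 and 0 counts in wild-type libraries. Vegfa, the main growth factor of endothelium, was at 18.3 and 13.9 CPM in Sfrp4-/- and 22.3 and 11.0 CPM in wild-type libraries, which overlapped (log2 fold change -0.05 ± 0.42). Pgf, its relative placental growth factor, was at 24.9 and 23.6 CPM in Sfrp4-/- and 43.1 and 28.9 CPM in wild-type libraries (-0.57 ± 0.32). Vegfc, the lymphatic growth factor, was at 3.51 and 3.70 CPM in Sfrp4-/- and 6.40 and 5.83 CPM in wild-type libraries (-0.76 ± 0.46). For both, the Sfrp4-/- libraries lay below the wild-type ones without passing the test (edgeR adjusted p = 1.00 each, n = 2 per genotype). That order was found in 12.6% of all tested genes. Vegfb had the opposite order, found in 15.0% of all tested genes. It was at 9.88 and 11.4 CPM in Sfrp4-/- and 9.6 and 8.74 CPM in wild-type libraries (0.22 ± 0.35).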

How the data were processed

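Per the labels' protocols, RNA of the sorted cells was made into ultra-low-input, non-directional mRNA libraries with a SMARTer kit. The authors deposited unnormalized whole-number counts of each gene, with coordinates and length. The tools named in the submitters' processing notes are featureCounts 1.00-p3, HISAT2 2.0.5, DESeq2 1.20.0 and CASAVA, and the build is mm10. The role of each, the counting settings and the annotation are not stated in the sources used here. The first line of the file pairs its columns with the samples. Of 54532 gene identifiers, 54495 were in GENCODE M21, of which 53462 had the same coordinates. Angptl4 did not, so its exon overlap is the least certain.

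The test was edgeR 4.0.16 (R 4.3.3): filterByExpr (13737 genes), TMM, glmQLFit and glmQLFTest with genotype alone, and Benjamini-Hochberg adjustment over all genes at 0.05. The SE is the absolute log2 fold change over the square root of F. The common dispersion gave a coefficient of variation of 41.5%. Each library was a replicate, since the chi-square between libraries of a genotype, over its degrees of freedom, was 133 in Sfrp4-/- and 163 in wild-type. Intervals of counts and floors cover counting error only. The exact permutation test could not pass with 2 libraries a group. The script was tested on simulated data. Alternatives were median-of-ratios factors, library totals, other filters, DESeq2 1.42.0, limma-voom 3.58.1, the replicate number as a block and leaving out each library. Figures were drawn with matplotlib 3.10.9.

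The members and lists were chosen with earlier results of these data known. Named were the family, Sfrp4, the genes overlapping a member, the 2 genes of each list with the lowest p plus Tek, Tie1, Ptprb, Lpl and Vegfa, and the nearest patterns; some of these are not reported here. Motifs, and the 2 promoters compared, were chosen after values were seen.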

Additional observations from a re-analysis of the deposited data

How the results depend on the processing

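None of the 6 members other than Angptl7 passed under any alternative that kept all libraries. The count of genes past the threshold, 0 with all libraries, was 20 without the filter on low counts, 7 with DESeq2, and 2 to 7 with a library left out (7 and 5 without Sfrp4-/- replicates 1 and 2 in turn, 6 and 2 without the wild-type ones). Of 75 recomputed log2 fold changes of members, 8 changed sign. Angptl6 and Angptl7 were below 0 in every alternative. With a library left out, the order of their values largely fixed this. With each library left out, values ran from -0.10 to 0.73 for Angptl4, -0.56 to 0.96 for Angptl2, -1.38 to 0.91 for Angptl1, -0.31 to 1.03 for Angpt1, -0.19 to 0.44 for Angpt2 and -0.06 to 1.01 for Angpt4. Outside the members they ran from -0.48 to 0.55 for Vegfa, -1.18 to 0.07 for Itgb1, -2.98 to 0.05 for Ppard, -0.37 to 0.16 for Mtor, -0.36 to 0.47 for Ralgps2 and -0.03 to 0.48 for A230050P20Rik. Limma-voom gave -0.29 for Angptl1 and 0.03 for Vegfa and Ralgps2. With library totals alone the median over all genes was 0.240, against 0.003, and the values were 0.19 for Vegfa, 0.16 for Mtor and 0.23 for Ralgps2, and the stricter filter, which left out Angpt1 and Angptl1, gave 0.03 for Ralgps2. The causes were not tested. Of 14 levels per length, 1 moved by more than the spread of its replicates with library totals alone, that of Angptl7 in Sfrp4-/- libraries (1.74 against 1.60 RPKM).

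The titles do not say that a replicate number marks a shared day or litter, and with 2 pairs the numbers are a hint only. Same-numbered libraries deviated together (correlation 0.365 over 13737 genes). With the replicate number as a block, 1 gene passed, and the log2 fold changes were -0.20 for Angptl1, 0.02 for Vegfa and 0.03 for Ralgps2. Depth limits Angpt1, Angptl1 and Angptl8, with at most 86 counts in a library. Counts were similarly low for Angptl6 (52 and 89 in Sfrp4-/-, 80 and 128 in wild-type libraries) and for Angptl7 in Sfrp4-/- libraries (66 and 69).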

Other observations

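Lipc, which encodes hepatic lipase, a relative of lipoprotein lipase best known from liver, had 7000 and 5038 counts in Sfrp4-/- libraries and 6915 and 7233 counts in wild-type libraries. It was singled out after its values were seen. Per length it was at 176 and 114 RPKM in Sfrp4-/- and at 214 and 196 RPKM in wild-type libraries, far above Lpl at 2.94 and 2.50 RPKM in Sfrp4-/- and 1.58 and 1.96 RPKM in wild-type libraries. Both Sfrp4-/- values of Lipc were below both wild-type values, with a log2 fold change of -0.50 ± 0.35 (SE, n = 2 each, edgeR adjusted p = 1.00). Apoe, an apolipoprotein gene, was at 176 and 206 CPM in Sfrp4-/- and 167 and 198 CPM in wild-type libraries, and Apoc2, the activator of lipoprotein lipase, had 0 counts throughout.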
